A study of Danio rerio with 9 samples.

Results

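The Sox, Pax, Zic, iroquois (Irx), POU, LIM homeobox (Lhx), Nkx, Gli and Phox2 genes were followed as one set of transcription factor families that pattern the neural tube. Members were all genes whose probe carried a single symbol, brought up to date through its Entrez identifier, that began with one of these 9 family names. This gave 57 of the 5355 named genes on the array, in 8 families: 14 sox, 9 pax, 5 zic, 5 irx, 11 pou, 4 lhx, 7 nkx and 2 gli genes, and 0 phox2 genes. Only glipr2l, which shares the first letters of gli but belongs to another family, was dropped. The 57 genes had 60 probes, and each gene was read from its probe with the highest mean over the 9 arrays.

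The study asked which transcripts depend on Hoxb1a, the Hox protein that gives the hindbrain segment rhombomere 4 (r4) its identity. RNA was measured on one-colour oligonucleotide arrays of hindbrain pieces cut from zebrafish embryos at 19 to 20 hours post fertilization, with 8 to 10 embryos pooled for each sample. There were 3 samples of Hoxb1a-deficient r4, from embryos injected with a Hoxb1a morpholino, 3 of normal rhombomere 2 (r2), which served as a further tissue without Hoxb1a, and 3 of normal r4. The r2 and normal r4 pieces came from embryos described as untreated or unmanipulated, and no group injected with a control morpholino was analysed here. All embryos of all 3 groups carried an islet-1 GFP transgene, which marks motor neurons among other cells, and every piece was a thick transverse section dissociated with trypsin, so it held whatever tissue lay at that level of the axis. The series assigns the samples to 3 experiments: experiment 1 held Hoxb1a-deficient r4 and normal r4, experiment 2 held 1 sample of each group, and experiment 3 held 1 sample of each r4 group and r2 samples 3a and 3b.

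These families set up cell identity along both axes of the neural tube. Zic and Pax3/7 genes act dorsally, Pax6 and Irx genes at intermediate levels, and Nkx2 and Nkx6 genes ventrally, where Gli proteins carry the hedgehog signal. SoxB1 and POU class III genes are active in dividing progenitors, SoxC and LIM homeobox genes in young neurons. Hox genes such as hoxb1a add the position along the head to tail axis, so that a segment forms its own set of neurons from the same dorsal to ventral plan.

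Values are given as multiples of the median probe of each array, as deposited. Levels of different genes come from different probes, so differences in level between genes were not read as results. Levels were ranked to name the brightest member of each family. They were added up in the sums of marker genes given below, where a bright probe weighs most. Of the 57 members, 26 lay above the array median on all 9 arrays (45.6%), against 41.2% of all 16227 probes. The 26 included every iroquois gene on the array and most of the zic genes, but only pax2a among the pax genes and nkx6.2 among the nkx genes. A further 20 members lay at or below the median on all 9 arrays, between 0.359 and 0.901, and 11 lay above it on some arrays only. No detection calls were used, so for those 20 genes signal was not separated from background. They included sox9a and sox10 of neural crest, otic tissue and glia, pax3a and pax7a of the dorsal neural tube, pax6b, pax5, pax8, pax2b, lhx3 and lhx1b of neurons, and nkx2.1 and nkx2.4b of the ventral forebrain.

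**Figure D1:**
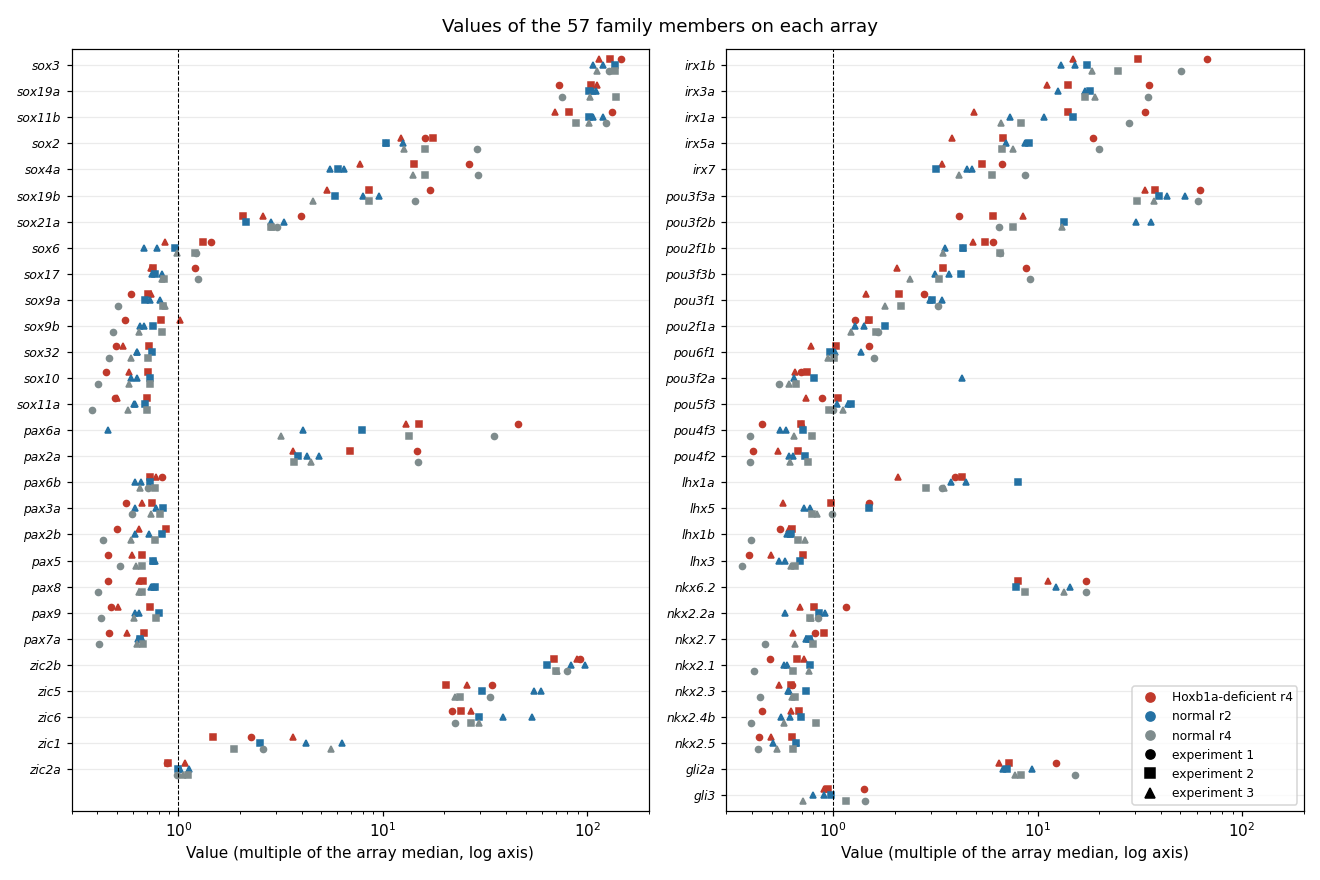
Values of the 57 members on each of the 9 arrays, as multiples of the array median on a log axis, with 1 gene per line, colours for the 3 groups and symbols for the 3 experiments; the dashed line is the array median. For 20 genes all points lie left of the line, and probes of different genes cannot be compared in level.

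For 53 of the 57 genes none of the comparisons passed the test, and the 4 that passed it differed between r2 and an r4 group. In r2, the POU gene pou3f2b was higher and the SoxC gene sox4a was lower than in normal r4. Against r2, Hoxb1a-deficient r4 had lower pou3f2b, pou3f1 and zic5. For pou3f1, zic5 and sox4a, r2 differed from both r4 groups in the same direction, with only 1 comparison under the threshold. In r2 against normal r4 the adjusted p (limma) was 0.0621 for pou3f1 and 0.0540 for zic5. In Hoxb1a-deficient r4 against r2 it was 0.0780 for sox4a. The calls alone therefore do not separate the r4 groups. No member differed between Hoxb1a-deficient r4 and normal r4 at an adjusted p under 0.05. Log2 values were fitted with limma over all 16227 probes and 9 arrays, with the experiment as a block, and p-values were adjusted over all probes by Benjamini and Hochberg. Without the block, no member was called in any comparison. There were 3 samples a group, and nothing says that an experiment's samples came from separate clutches. These p-values therefore measure only the spread left between these samples after the experiment block is taken out. The arrays measured RNA from mixed tissue, so fewer cells of a type and less RNA per cell cannot be told apart.

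In Hoxb1a-deficient r4 against normal r4, 0 of 57 members were called, where 0.0123% of all probes were (2 probes). At an unadjusted p under 0.05 it was 1 member, pou3f2b (1.75%), against 5.74% of all probes. The median log2 difference of the members was 0.00, against -0.01 for all probes. The range was -0.54 to 0.86, and the median standard error was 0.15. In 14 members the difference had the same sign in all 3 experiments. Among these 14, pax2b, pax6a and pou3f2a were higher in every experiment and the others lower. Such signs were not counted for all probes. They were not read as a result, here or where they are given for single genes below.

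In normal r2 against normal r4, 1 member was called higher and 1 lower. Among all probes 0.764% were called higher and 0.937% lower, or 1.70% in either direction. At an unadjusted p under 0.05 it was 10 members (17.5%), against 11.0% of all probes. Other references gave more: 691 of 5355 named genes by the mean of their probes, and 1371 of 8597 probes above the array median on at least 3 arrays. The median log2 difference of the members was 0.06, against 0.04 for all probes, and the range was -1.26 to 1.11.

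In Hoxb1a-deficient r4 against normal r2, 3 members were called lower and 0 higher, where 1.34% of all probes were called lower and 2.21% in either direction. At an unadjusted p under 0.05 it was 16 members (28.1%), against 15.2% of all probes. Other references gave more: 889 of 5355 named genes by the mean of their probes, and 1804 of 8597 probes above the array median on at least 3 arrays. The 16 included sox11b, with r2 values at the array maximum, and pax5, below the median on all 9 arrays. The members' median log2 difference was -0.07, against -0.04 for all probes, and the range was -1.66 to 2.12. The comparisons share samples in pairs, so they are not independent of each other.

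**Figure D2:**
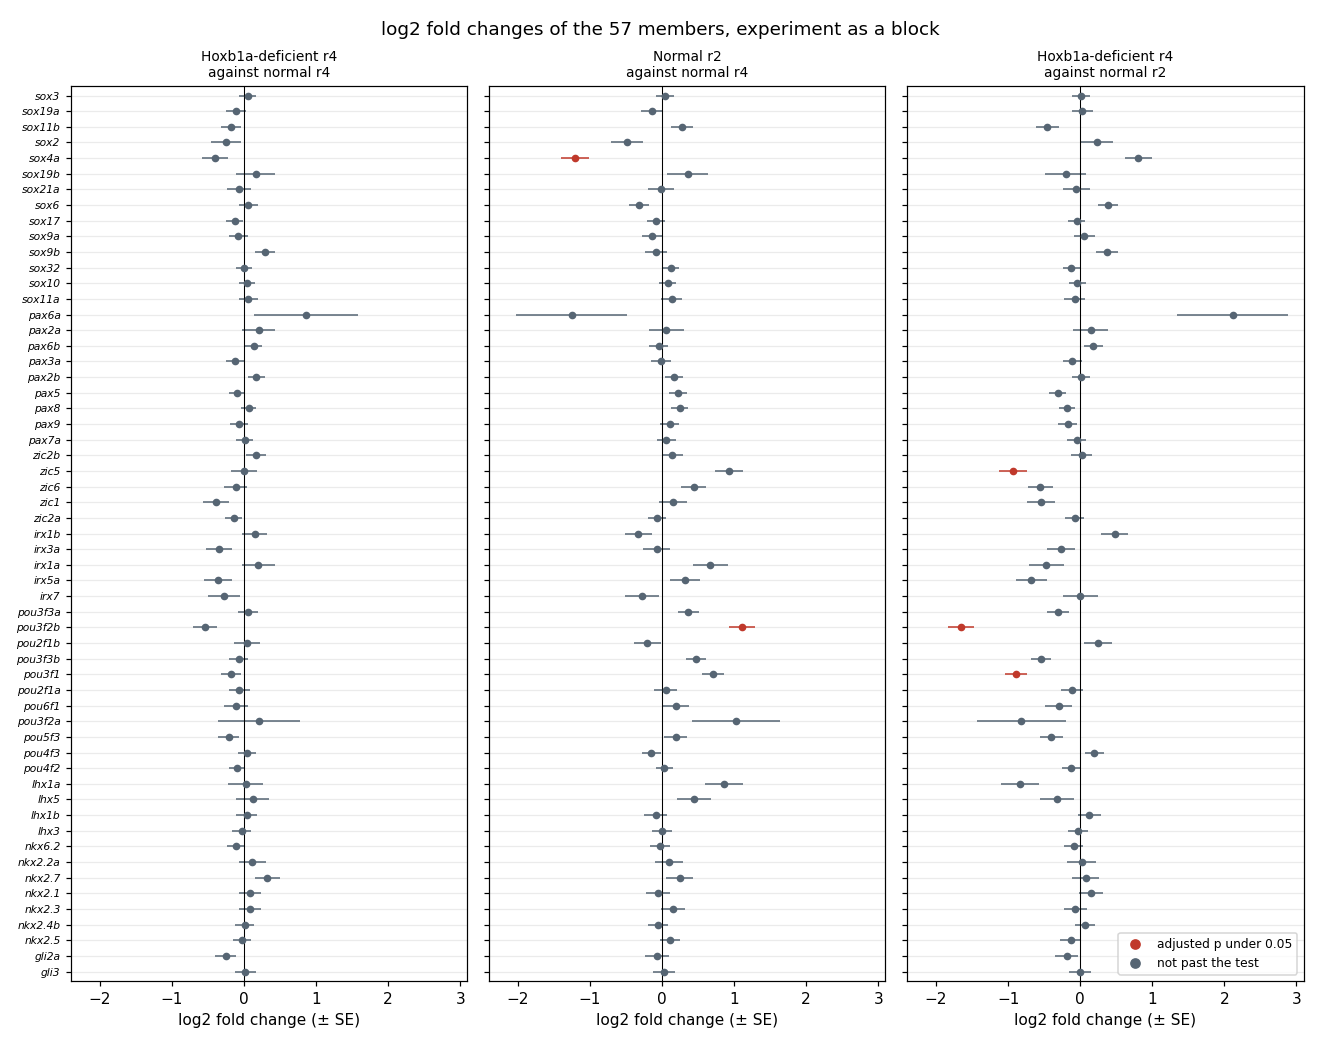
Log2 fold changes of the 57 members (points) with their standard errors (bars) in the 3 comparisons, fitted with the experiment as a block; red points had an adjusted p under 0.05. No point is red for Hoxb1a-deficient r4 against normal r4, 2 are for r2 against normal r4 (pou3f2b and sox4a) and 3 for Hoxb1a-deficient r4 against r2 (pou3f2b, pou3f1 and zic5).

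The POU class III genes encode factors with a POU domain and a homeodomain that are active in neural progenitors and in many neurons of the vertebrate brain. The pou3f2b probe read 4.13, 6.02 and 8.46 in the Hoxb1a-deficient r4 samples of experiments 1, 2 and 3. It read 13.4 in r2 of experiment 2 and 30.3 and 36.1 in r2 samples 3a and 3b, against 6.49, 7.60 and 13.2 in the normal r4 samples of experiments 1, 2 and 3. All 3 r2 samples were above all 6 r4 samples, although the lowest r2 value lay close to the highest normal r4 value, and in every experiment the Hoxb1a-deficient sample was below its normal r4 partner.

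For pou3f2b, r2 exceeded normal r4 by 1.11 ± 0.18 on the log2 scale (SE), a 2.16-fold difference with an adjusted p of 0.0182. The differences within experiments were 0.82 in experiment 2 and, for r2 samples 3a and 3b, 1.20 and 1.46 in experiment 3. Samples 3a and 3b were set against the same r4 sample, so these 2 differences are not independent. The same holds for the later sets of 3 differences of r2 from an r4 group. Without the experiment as a block the adjusted p was 0.379, and the call was made in 8 of the 18 alternatives tried (adjusted p = 0.00477 to 0.379). It was lost without either r4 sample of experiment 1, the normal r4 sample of experiment 2 or 3, or r2 sample 3a or 3b. Averaging r2 samples 3a and 3b also lost it. Hoxb1a-deficient r4 was below r2 by 3.15-fold (log2 -1.66 ± 0.18, adjusted p = 0.00220), with differences of -1.16, -1.84 and -2.09. This call was made in 17 of the 18 alternatives and missed the threshold without the block (adjusted p = 0.0854). Hoxb1a-deficient r4 differed from normal r4 by -0.54 ± 0.17 (95% interval -0.92 to -0.16, unadjusted p = 0.0107, adjusted p = 0.771), with differences of -0.65, -0.34 and -0.64 in the 3 experiments. Its adjusted p did not go below 0.195 in any alternative.

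The pou3f1 gene, whose mammalian counterpart controls myelination by Schwann cells and is expressed in brain neurons, read 2.78, 2.11 and 1.45 in Hoxb1a-deficient r4. It read 3.04, 3.40 and 2.98 in r2, against 3.24, 2.15 and 1.78 in normal r4. Every Hoxb1a-deficient r4 sample lay below every r2 sample, while the normal r4 sample of experiment 1 fell among the r2 values. The difference of Hoxb1a-deficient r4 from r2 was -0.89 ± 0.15 (adjusted p = 0.0204), and it was called in 9 of the 18 alternatives (adjusted p = 0.00619 to 0.997, the highest without the block). The call was lost without either r4 sample of experiment 1, the Hoxb1a-deficient sample of experiment 3, or r2 sample 3a or 3b. Averaging r2 samples 3a and 3b also lost it. The r2 against normal r4 difference was 0.71 ± 0.15 (adjusted p = 0.0621), and it was called in 3 of the 18 alternatives, quantile normalization and without the r2 or the Hoxb1a-deficient sample of experiment 2.

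The other class III genes did not pass the test in any comparison. The values of pou3f3a were 62.2, 37.6 and 33.5 in Hoxb1a-deficient r4. They were 39.1, 52.4 and 42.9 in r2, against 61.0, 30.8 and 37.1 in normal r4. The groups overlapped, and the r2 against normal r4 difference was 0.36 ± 0.15 (adjusted p = 0.395). The values of pou3f3b were 8.75, 3.43 and 2.06 in Hoxb1a-deficient r4. In r2 they were 4.20, 3.68 and 3.13, against 9.19, 3.30 and 2.37 in normal r4. The r4 samples of experiment 1, which had no r2 sample, were the highest for pou3f3b, and within experiments 2 and 3 r2 was above normal r4 by 0.35, 0.64 and 0.41. The fitted difference was 0.47 ± 0.14 (adjusted p = 0.194).

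The remaining class III gene, pou3f2a, was above the array median on 1 array only, r2 sample 3a (4.27); the other 8 arrays gave 0.540 to 0.808. For the class as a group, 5 of 5 genes had a positive r2 against normal r4 difference (median 0.71, against 0.04 for all probes). Of these, 1 was called higher, where 0.764% of all probes were. Signs were not counted for all probes. With a filter on dim probes, which left out pou3f2a, 4 of 4 were positive (median 0.59). Without the block it was 4 of 5, with pou3f3b negative and a median of 0.44, and without r2 sample 3a the median was 0.38. The Hoxb1a-deficient r4 against r2 differences were positive in 0 of 5 genes, and 2 were called lower, where 1.34% of all probes were. Their median was -0.82, against -0.04 for all probes. The class median is the value of pou3f2a itself, and with the dim-probe filter it was -0.71. It was -0.45 without r2 sample 3a, -0.50 without the Hoxb1a-deficient sample of experiment 3 and -0.51 with log2(value + 1). Without the block 1 of 5, pou3f3b, was positive. Against normal r4, 2 of 5 genes had a positive difference in Hoxb1a-deficient r4 (median -0.07), and none was called.

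The POU genes of other classes were also not called. The pou2f1a and pou2f1b genes belong to the widely expressed octamer-binding class, and pou2f1b read 6.02, 5.50 and 4.82 in Hoxb1a-deficient r4, 4.31, 4.32 and 3.52 in r2, against 6.53, 6.55 and 3.43 in normal r4. All Hoxb1a-deficient r4 values lay above all r2 values (log2 difference 0.25 ± 0.19, adjusted p = 0.600), and the normal r4 values overlapped both. The pou5f3 gene is known in zebrafish for roles in the early embryo and in the forming midbrain and hindbrain, and it stayed between 0.735 and 1.23 on all 9 arrays. The pou4f2 and pou4f3 genes of sensory neurons were below the median on all 9 arrays.

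**Figure D3:**
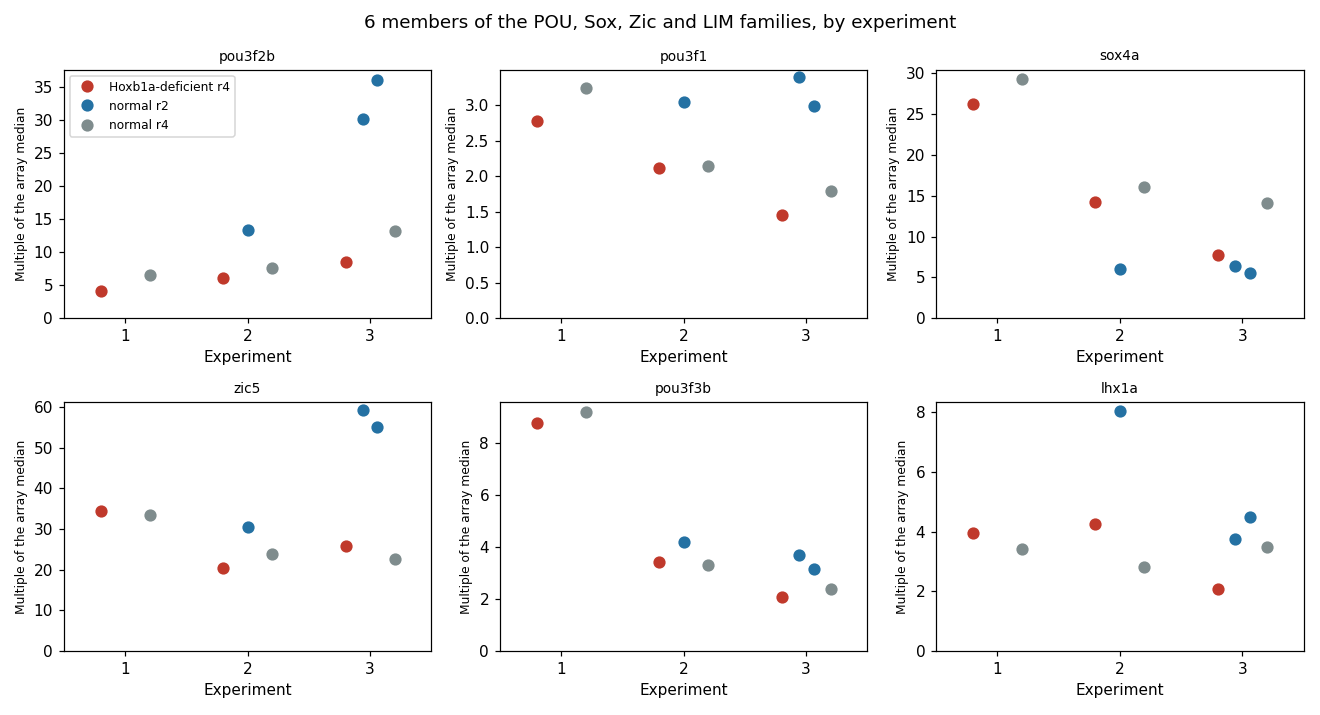
Values of 6 members on each array by experiment, as multiples of the array median, with 1 point per sample; pou3f2b, pou3f1, sox4a and zic5 were called in at least 1 comparison, pou3f3b and lhx1a in none. The r2 points of pou3f2b lie above all r4 points and those of sox4a below all of them.

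Among the Sox genes, the called member was sox4a, of the SoxC class that is active in newly born neurons. It read 26.3, 14.2 and 7.72 in the Hoxb1a-deficient r4 samples of experiments 1, 2 and 3. In r2 it read 6.06, 6.44 and 5.53, against 29.3, 16.1 and 14.1 in normal r4. All r2 samples were below all r4 samples, and each Hoxb1a-deficient sample was below its normal r4 partner. The r2 against normal r4 difference was -1.21 ± 0.19 (2.31-fold lower, adjusted p = 0.0169), with -1.41, -1.13 and -1.35 within experiments. It was called in 10 of the 18 alternatives (adjusted p = 0.00141 to 0.233, the highest without the block). The call was lost without either r4 sample of experiment 1, the normal r4 sample of experiment 2 or 3, or r2 sample 3b. Hoxb1a-deficient r4 against r2 gave 0.81 ± 0.19 (adjusted p = 0.0780), which was called in 2 of the 18 alternatives, quantile normalization and without the Hoxb1a-deficient sample of experiment 3, and Hoxb1a-deficient r4 against normal r4 gave -0.40 ± 0.18 (95% interval -0.81 to 0.01, adjusted p = 0.873).

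The other measured SoxC genes were sox11b and sox11a. For sox11b the values were 132, 81.9 and 69.5 in Hoxb1a-deficient r4, 102, 107 and 119 in r2, against 123, 87.7 and 102 in normal r4. The groups overlapped, and 2 of the r2 values were the highest their arrays recorded, so they are lower bounds. No difference of r2 from either r4 group was read from this probe. The sox11a probe stayed below the median on all 9 arrays.

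The SoxB1 genes, which hold neural cells in the progenitor state, did not pass the test in any comparison. For sox2 the values were 16.1, 17.5 and 12.3 in Hoxb1a-deficient r4, 10.4, 12.5 and 10.3 in r2, against 28.9, 16.1 and 12.6 in normal r4. The highest r2 value was just under the lowest normal r4 value, and the difference was -0.48 ± 0.22 (adjusted p = 0.486). Hoxb1a-deficient r4 against normal r4 gave -0.25 ± 0.21 (adjusted p = 0.922). The sox3 probe ran from 107 to 147 over the 9 arrays and stood at the array's maximum on 6 of them, 2 in each group, so differences between groups could not be read from it. The sox19a probe was at the maximum on 1 array, r2 sample 3a, and ran from 73.1 to 138. For sox19b the values were 17.1, 8.54 and 5.34 in Hoxb1a-deficient r4, 5.86, 7.96 and 9.59 in r2, against 14.3, 8.56 and 4.54 in normal r4. The groups overlapped, and the r2 against normal r4 difference of 0.36 ± 0.28 (adjusted p = 0.821) was called in 1 alternative, without the r2 sample of experiment 2, as was its Hoxb1a-deficient r4 against r2 difference. The SoxB2 gene sox21a, which in chick counteracts the SoxB1 genes, ran from 2.07 to 3.99 with overlapping groups.

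Of the SoxE genes of neural crest, otic tissue and glia, sox9b read 0.547, 0.825 and 1.02 in Hoxb1a-deficient r4, 0.753, 0.648 and 0.676 in r2, against 0.478, 0.827 and 0.638 in normal r4. These values straddle or lie under the median, and the groups overlapped. The sox9a and sox10 probes were below the median on all 9 arrays. The sox6, sox17 and sox32 genes, of which the last 2 act in zebrafish endoderm, were not called either.

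The Zic genes encode zinc finger proteins of the dorsal neural tube and its roof. The zic5 gene read 34.4, 20.4 and 25.8 in the Hoxb1a-deficient r4 samples. It read 30.4, 59.1 and 55.1 in r2, against 33.4, 23.9 and 22.5 in normal r4. Within each experiment every r2 sample was above both r4 samples, while over all arrays the groups overlapped because the r4 samples of experiment 1 were above the r2 sample of experiment 2. Hoxb1a-deficient r4 was below r2 by -0.93 ± 0.19 (1.91-fold lower, adjusted p = 0.0467), with -0.58, -1.20 and -1.10 within experiments. It was called in 6 of the 18 alternatives (adjusted p = 0.00671 to 0.857, the highest without the block). Of the 9 samples, only leaving out the normal r4 or the r2 sample of experiment 2 kept the call. Averaging r2 samples 3a and 3b also lost it. The r2 against normal r4 difference was 0.93 ± 0.19 (adjusted p = 0.0540), and it was called in 7 of the 18 alternatives: the random block, the dim-probe filter, trended and robust eBayes, the mean of a gene's probes, and when any 1 sample of experiment 2 was left out. Hoxb1a-deficient r4 against normal r4 gave 0.00 ± 0.18 (95% interval -0.41 to 0.41, adjusted p = 0.999).

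The other 4 zic genes were not called. For zic6 the values were 21.7, 24.0 and 27.1 in Hoxb1a-deficient r4, 29.5, 38.7 and 54.0 in r2, against 22.4, 27.0 and 29.7 in normal r4. The r2 and normal r4 groups overlapped at their edges, and the difference was 0.44 ± 0.17 (adjusted p = 0.374). For zic1, a gene of the dorsal hindbrain and cerebellum, the values were 2.25, 1.47 and 3.65 in Hoxb1a-deficient r4, 2.51, 4.20 and 6.32 in r2, against 2.60, 1.88 and 5.61 in normal r4. Both r4 groups and r2 overlapped, the samples of experiment 3 were the highest of each group, and Hoxb1a-deficient r4 against normal r4 gave -0.39 ± 0.18 (adjusted p = 0.873). The zic2b gene ran from 63.9 to 97.2 in overlapping groups, and zic2a from 0.882 to 1.12.

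As a group, 4 of 5 zic genes had a positive r2 against normal r4 difference (median 0.15, against 0.04 for all probes), with zic2a negative. The count and median moved with the setting: 3 of 5 were positive after quantile normalization (median 0.10), without the r2 sample of experiment 2 (0.26) or without the normal r4 sample of experiment 3 (0.35), and 5 of 5 without the normal r4 sample of experiment 2 (0.28). The median was 0.43 without the block, 0.34 without r2 sample 3a and 0.05 without r2 sample 3b. Against r2, 1 of 5 had a positive difference in Hoxb1a-deficient r4 (median -0.55). Of the 5, 1 was called lower, where 1.34% of all probes were. The positive count was 0 of 5 without the r2 sample of experiment 2 or r2 sample 3a. The median was -0.27 after quantile normalization and -0.30 with the mean of a gene's probes. In the RefSeq annotation (assembly GRCz12tu, used here for gene order only) zic5 and zic2a are direct neighbours. The zic2a probe stayed near the array median on all 9 arrays, so the pair could not be compared.

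The iroquois genes encode homeodomain proteins that divide the neural plate into territories, and irx1b and irx7 are known in zebrafish for roles in the hindbrain and at its border with the midbrain. The irx1b gene read 67.7, 30.9 and 14.8 in the Hoxb1a-deficient r4 samples of experiments 1, 2 and 3. In r2 it read 17.4, 15.2 and 13.0, against 50.4, 24.6 and 18.5 in normal r4. In both r4 groups the values were highest in experiment 1 and lowest in experiment 3, and r2 was below its normal r4 partner in every experiment that held it. The difference of r2 from normal r4 was -0.33 ± 0.19 (adjusted p = 0.633), and that of Hoxb1a-deficient r4 from normal r4 was 0.14 ± 0.17 (adjusted p = 0.977).

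For irx7 the values were 6.68, 5.32 and 3.40 in Hoxb1a-deficient r4, 3.20, 4.78 and 4.51 in r2, against 8.72, 5.96 and 4.15 in normal r4. Each Hoxb1a-deficient sample was below its normal r4 partner, while the groups overlapped as wholes. The difference was -0.28 ± 0.22 (95% interval -0.78 to 0.22, adjusted p = 0.918). For irx1a the values were 33.6, 14.1 and 4.89 in Hoxb1a-deficient r4, 14.8, 10.8 and 7.34 in r2, against 27.9, 8.28 and 6.62 in normal r4. The r2 samples were above normal r4 by 0.84, 0.70 and 0.15 within experiments, with a fitted difference of 0.67 ± 0.24 (adjusted p = 0.305).

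The irx3a and irx5a genes, of the same homeodomain family, lie side by side in the RefSeq gene order. The irx3a values were 35.0, 14.1 and 11.1 in Hoxb1a-deficient r4, 18.1, 17.1 and 12.6 in r2, against 34.7, 17.0 and 19.1 in normal r4. The irx5a values were 18.6, 6.78 and 3.79 in Hoxb1a-deficient r4, 9.07, 8.70 and 7.02 in r2, against 19.9, 6.71 and 7.61 in normal r4. For both genes the r4 samples of experiment 1 were the highest and the Hoxb1a-deficient sample of experiment 3 the lowest. Hoxb1a-deficient r4 against normal r4 gave -0.34 ± 0.18 for irx3a and -0.36 ± 0.20 for irx5a, each with an adjusted p of 0.890.

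None of the 5 iroquois genes was called in any comparison. Their r4 samples in experiment 1 exceeded those in experiments 2 and 3 by a median of 1.45 on the log2 scale (0.73 to 1.97). Over the 6678 probes above the median on all arrays this shift was 0.63, and over all probes it was -0.10. Because experiment 1 had no r2 sample, the r2 against normal r4 differences moved with the block: 2 of 5 iroquois genes were positive with it (median -0.08) and 0 of 5 without it (median -0.51). They also moved with single samples: 3 of 5 were positive without the r2 sample of experiment 2 (median 0.17), the normal r4 sample of experiment 3 (0.20) or r2 sample 3b (0.05). No direction was read from them.

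**Figure D4:**
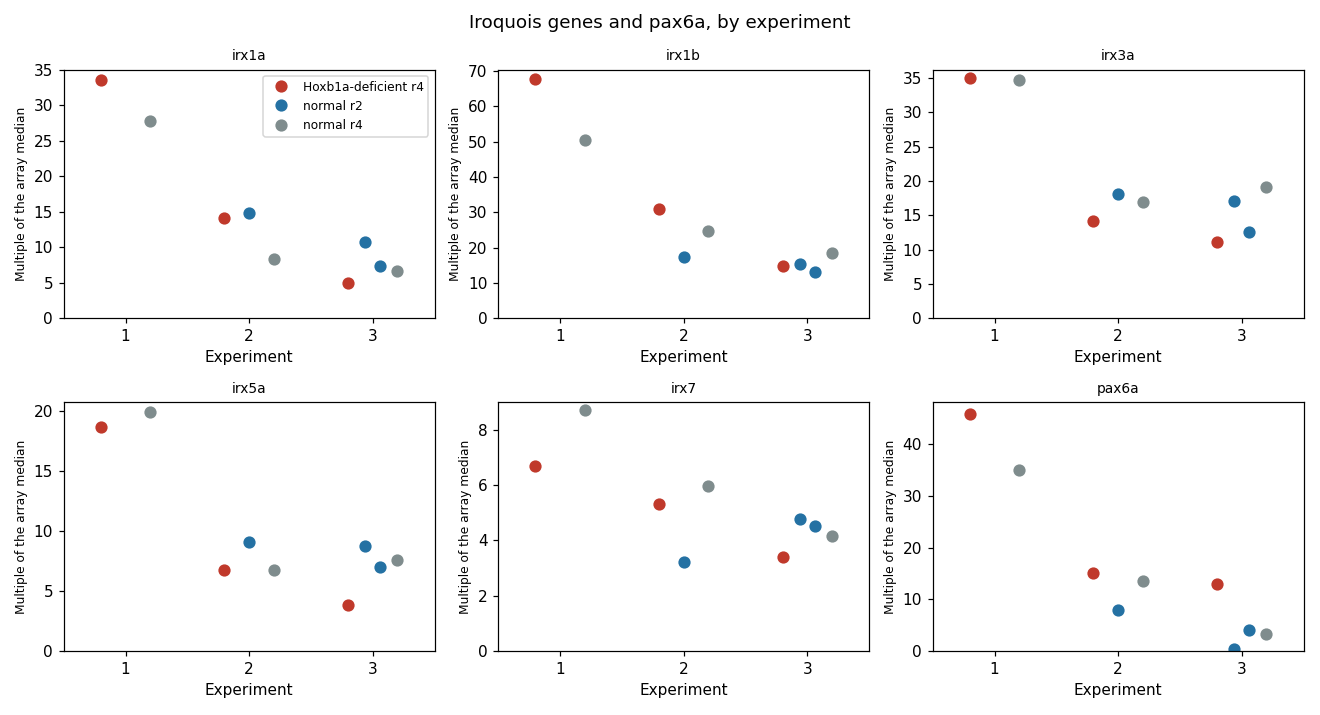
Values of the 5 iroquois genes and pax6a on each array by experiment, as multiples of the array median, with 1 point per sample. The r4 points of experiment 1 stand above those of experiments 2 and 3 in all 6 panels.

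Among the Pax genes, pax6a marks progenitors at intermediate levels of the neural tube. It read 45.9, 15.0 and 13.0 in the Hoxb1a-deficient r4 samples. In r2 it read 7.88, 0.453 and 4.09, against 35.1, 13.5 and 3.17 in normal r4. Every Hoxb1a-deficient sample was above every r2 sample, and each was above its normal r4 partner. The r2 samples 3a and 3b of the same experiment stood on either side of the array median. The difference of Hoxb1a-deficient r4 from r2 was 2.12 ± 0.77 (adjusted p = 0.233), that from normal r4 was 0.86 ± 0.72 (95% interval -0.77 to 2.49, adjusted p = 0.928), and that of r2 from normal r4 was -1.26 ± 0.77 (adjusted p = 0.694).

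The pax2a gene, which is known in zebrafish from the midbrain-hindbrain boundary, the otic placode and interneurons, read 14.8, 6.88 and 3.64 in Hoxb1a-deficient r4. It read 3.85, 4.89 and 4.26 in r2, against 14.9, 3.65 and 4.47 in normal r4. The groups overlapped, and both r4 samples of experiment 1 stood above the rest. Its difference between Hoxb1a-deficient r4 and normal r4 was 0.20 ± 0.23 (adjusted p = 0.972). The other 7 pax genes, pax2b, pax3a, pax5, pax6b, pax7a, pax8 and pax9, were below the median on all 9 arrays and were not called.

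Of the ventral genes, nkx6.2 helps to specify motor neuron and interneuron progenitors. It read 17.2, 8.06 and 11.3 in Hoxb1a-deficient r4. In r2 it read 7.85, 12.2 and 14.4, against 17.2, 8.63 and 13.4 in normal r4. The groups overlapped, and its Hoxb1a-deficient r4 against normal r4 difference was -0.12 ± 0.12 (adjusted p = 0.963). The nkx2.2a gene, active in the most ventral progenitors, ran from 0.579 to 1.15, and the other 5 nkx genes were below the median on all 9 arrays.

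The gli2a gene, a transcriptional effector of hedgehog signalling, read 12.3, 7.24 and 6.46 in Hoxb1a-deficient r4. It read 7.11, 9.44 and 6.78 in r2, against 15.2, 8.32 and 7.73 in normal r4. Each Hoxb1a-deficient sample was below its normal r4 partner, with an overall difference of -0.26 ± 0.15 (95% interval -0.60 to 0.08, adjusted p = 0.890). The gli3 gene, which acts mainly as a repressor of hedgehog targets, ran from 0.713 to 1.43 in overlapping groups. Of the hedgehog pathway list beside the gli genes, 11 of 20 genes were measured, and 0 were called in any of the 3 comparisons.

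Among the LIM homeobox genes, lhx1a of hindbrain and spinal interneurons read 3.96, 4.27 and 2.08 in Hoxb1a-deficient r4. It read 8.04, 3.77 and 4.48 in r2, against 3.41, 2.83 and 3.49 in normal r4. All r2 samples were above all normal r4 samples, most of all in experiment 2, and the Hoxb1a-deficient samples overlapped both groups. The r2 against normal r4 difference was 0.86 ± 0.26 (adjusted p = 0.197), with 1.51, 0.11 and 0.36 within experiments. It was called when the normal r4 sample of experiment 3 was left out, as was the Hoxb1a-deficient r4 against r2 difference. The lhx5 gene ran from 0.568 to 1.50 in overlapping groups, and lhx1b and lhx3 were below the median on all 9 arrays. The second probes of lhx1a, sox19b and zic1 stayed below the array median on all 9 arrays, unlike the probes used.

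Of 52 other transcription factors of neural tube progenitors and young neurons, 31 were measured. In Hoxb1a-deficient r4 against normal r4, 0 were called. In r2 against normal r4, 3 of the 31 were called lower, namely gata3, neurod1 and prdm12b, and 0 higher. Among all probes, 0.937% were called lower. The gata3 and neurod1 genes are also in the otic vesicle and neuron marker lists below, so their calls there are the same tests. In Hoxb1a-deficient r4 against r2, 3 were called higher and 1, msx3, lower. Among all 16227 probes, 142 were called higher and 217 (1.34%) lower. The median r2 against normal r4 difference of the 31 genes was 0.06, against 0.04 for all probes.

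Markers of the segments and of neighbouring tissues were read on the same arrays. The hoxb1a probe itself read 3.17, 1.52 and 1.51 in Hoxb1a-deficient r4, 0.774, 0.590 and 0.567 in r2, against 3.02, 2.42 and 1.88 in normal r4. The r2 samples were the lowest, and the r4 groups overlapped; a morpholino can block a protein without lowering its transcript, so this does not check the knockdown. Of 8 measured hindbrain segment markers, 4 were called lower in r2 than in normal r4 (hoxb1a, egr2b, hoxb3a and hoxa3a), where 0.937% of all probes were. The list covers hindbrain segments in general and is not a list of r4 markers. The summed level of the 8 was 134 to 220 in Hoxb1a-deficient r4, 38.2 to 69.4 in r2 and 146 to 223 in normal r4. Most of each sum was egr2b alone, so the sums mainly follow that gene. It read 113.5 to 152.9 in Hoxb1a-deficient r4, 24.7 to 52.3 in r2 and 112.0 to 151.7 in normal r4. The egr2b readings in both r4 groups lay near the array maximum in experiments 1 and 3.

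Beside the r2 differences of pou3f2b, pou3f1, zic5 and sox4a stand the following marker lists. Among all probes, 0.764% were called higher and 0.937% lower in r2 than in normal r4. Of 8 measured midbrain and isthmus markers, 3 (otx2b, en2a and fgf8a) were called higher in r2 than in normal r4. The summed level of the 8 was 10.0 to 20.2 in Hoxb1a-deficient r4, 19.2 to 46.8 in r2 and 10.6 to 26.0 in normal r4. The largest part of each r4 sum was gbx2, which was called in none of the comparisons. It read 5.06 to 15.3 in Hoxb1a-deficient r4, 5.66 to 19.4 in r2 and 4.95 to 20.5 in normal r4. The forebrain and midbrain gene otx2b read 5.09, 11.7 and 21.2 in r2, against 0.762, 1.02 and 1.48 in normal r4. Of 7 measured otic vesicle markers, 6 were called lower in r2, with sums of 51.8 to 110 in Hoxb1a-deficient r4, 9.39 to 10.7 in r2 and 48.7 to 146 in normal r4. Of 9 measured neuron markers, 2 (neurod1 and slc18a3a) were called lower in r2. The list as a whole did not shift with them: 5 of the 9 r2 against normal r4 differences were positive, and their median was 0.00. One of the 9, the tubulin gene tubb5, stood at the array maximum on 5 arrays, and the other 8 summed to 35.7 to 107 in Hoxb1a-deficient r4, 25.4 to 31.5 in r2 and 64.3 to 118 in normal r4. In Hoxb1a-deficient r4 against r2, 3 midbrain and isthmus markers were called lower, and 6 otic vesicle and 2 neuron markers higher. Among all 16227 probes, 142 were called higher and 217 (1.34%) lower in that comparison. Only 3 of the 9 neuron markers had a positive difference there, with a median of -0.04. The part of these tissues in the r2 differences of the 4 members was not tested.

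Of the other lists, neural crest had 1 of 8 measured markers (gch2) called higher in r2 than in normal r4. Neural progenitors (fabp7a) and epidermis (epcam) each had 1 called lower. In Hoxb1a-deficient r4 against r2, gch2 and the progenitor marker gfap were called lower and epcam higher. Notochord and floor plate, skeletal muscle, and endothelium and blood had 0 called. The 4 measured endothelium and blood markers, and 4 of 6 skeletal muscle markers, were below the median on all 9 arrays. No marker of any list was called between Hoxb1a-deficient r4 and normal r4.

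**Figure D5:**
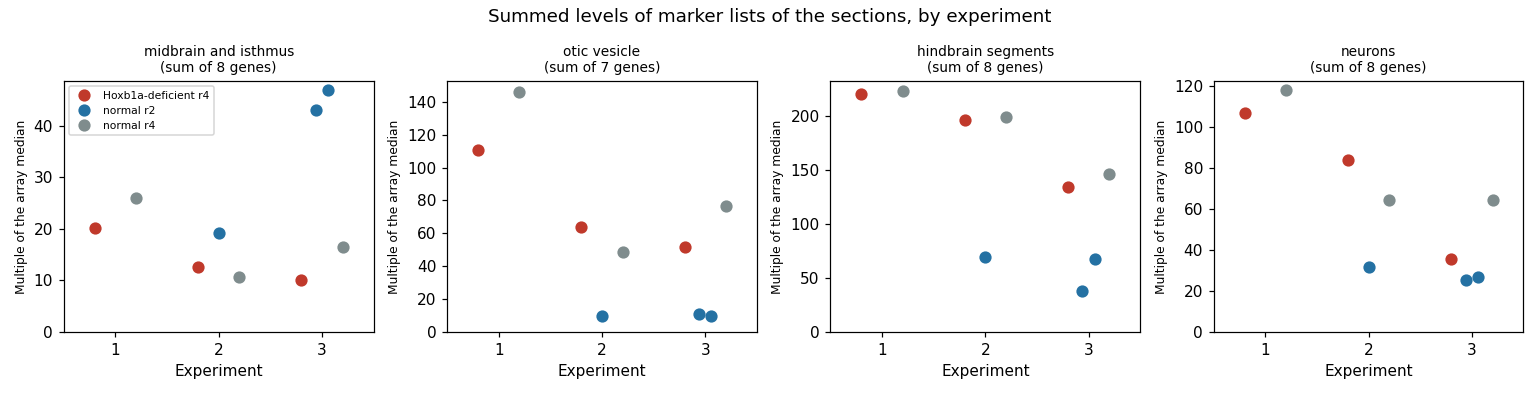
Summed levels of 4 marker lists on each array by experiment, as multiples of the array median, with 1 point per sample; tubb5, at the array maximum on 5 arrays, is left out of the neuron list. The r2 points are below all r4 points for the otic vesicle, hindbrain segment and neuron lists. In the r4 groups, most of the neuron sum was neurod1 and most of the hindbrain segment sum was egr2b. The largest part of their midbrain and isthmus sum was gbx2.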

How the data were processed

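The 9 arrays came from 3 experiments with 3 samples a group; groups were taken from the sample titles and experiments from the series' design text. Per the labels' protocols, RNA was amplified with a RiboAmp kit and labelled with biotin. The authors deposited linear values that behave as a ratio of signal to the array median: medians were 1.002 to 1.006, minima 0.277 to 0.542 and maxima 107 to 190. Between 9 and 243 probes shared each array's maximum, which was read as saturation, and upper quartiles ran from 3.64 to 6.87. For scanner, background treatment and normalization, the authors' choices are not given in the sources used. Of 16399 spots, 6079 had 1 symbol (6010 updated through Entrez), 74 several and 10246 none; 172 control spots of 1 accession were left out, leaving 16227 probes, 5907 of them with 1 symbol.

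Log2 values without pseudocount or filter were tested (two-sided) with limma 3.58.1 in R 4.3.3, with Benjamini-Hochberg adjustment over all probes. The replicate number was a fixed block because the design text makes each number a separate experiment. Deviations of same-numbered Hoxb1a-deficient and normal r4 samples from their group means correlated at 0.892, 0.730 and 0.683, those of different-numbered ones at -0.781 to 0.504. Pairs between experiments 2 and 3 gave 0.352 and 0.504. Deviations cancel out over the 3 samples of a group, so the contrast between same-numbered and different-numbered pairs is in part arithmetic. The 18 alternatives were no replicate block, a random block, log2(value + 1), quantile normalization, a filter on dim probes, trended and robust eBayes, the mean of r2 samples 3a and 3b, experiment 1 left out, the mean of all probes of a gene, and each of the 9 samples left out. The array number limits the precision.

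Named by rule were called members, the brightest of each family, the 6 largest differences of one sign in every experiment per comparison among members above the median, and 20 measured genes of a further list of 26, 28 members in all. Other members were named after their values were seen. A marker at an array's maximum was left out of the neuron sum, also after its values were seen. Members and lists were chosen with earlier results of these data known.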

Additional observations from a re-analysis of the deposited data

How the results depend on the processing

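Without the replicate block, 0 members were called in r2 against normal r4 (2 with it) and 0 in Hoxb1a-deficient r4 against r2 (3 with it). With log2(value + 1) the counts were 0 and 1, with r2 samples 3a and 3b averaged 1 and 1, and with experiment 1 left out 0 and 1, in that order of comparisons. Leaving out single samples gave 0 to 5 members in r2 against normal r4 and 1 to 4 in Hoxb1a-deficient r4 against r2. In the first of these, the count was 0 without r2 sample 3b or without either r4 sample of experiment 1, 1 without r2 sample 3a or without the normal r4 sample of experiment 2 or 3, 4 without the Hoxb1a-deficient sample of experiment 2 and 5 without the r2 sample of experiment 2. In the second it was 1 without r2 sample 3a, r2 sample 3b or either r4 sample of experiment 1. Leaving out either r4 sample of experiment 1 gives the same fit for r2 as leaving out the experiment. The random block, quantile normalization, the filter on dim probes, trended and robust eBayes and the mean of a gene's probes each called 3 members in each of these comparisons. Hoxb1a-deficient r4 against normal r4 gave 0 members in all 18 alternatives (limma; 1 at an unadjusted p under 0.05 with the replicate block). The cause of these changes was not tested. Over 1488 repeats of the named members' tests, 1324 kept direction and side of the threshold, 40 lost and 16 gained a call, 108 uncalled values changed sign and 0 called values did. Many repeats could not change direction. The estimate between the r4 groups is the same whatever the block, the eBayes setting or the r2 samples used. Leaving out experiment 1 or either of its samples gives the same fit. The 1324 therefore does not measure stability. Values near or under the array median, and those at an array's maximum, are bounds at best, and 3 samples a group limit all calls.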

Other observations

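Isolated values stood out in r2 sample 3a. Its pou3f2a reading was 4.27, against 0.808 or less on the other 8 arrays, and its pax6a reading was 0.453, against 4.09 in r2 sample 3b of the same experiment. Both are single-probe readings.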
